A study of Rattus norvegicus with 20 samples.

Results

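Oesophageal tissue of rats given STW5 at 2 ml/kg was compared with that of rats given STW5 at 0.5 ml/kg. The comparison uses the 4 arrays titled with the higher dose and the 4 arrays titled with the lower dose, 8 of the 20 arrays of the series, chosen by their titles and not by any measured value. The Wistar rats of both groups had surgically induced reflux oesophagitis and received STW5, a liquid combination of herbal extracts, for 7 days before the operation and for 10 days after it, when the oesophagus was removed. The other groups of the series, also with 4 arrays each, were operated rats given omeprazole at 30 mg/kg, operated rats without a drug, and sham-operated rats. Total RNA of each oesophagus was labelled with Cy3 and hybridised to a one-colour Agilent rat array. The design text names 4 animals per group, and neither it nor the labels give ages or a pairing of animals across groups.

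In reflux oesophagitis gastric acid, pepsin and bile reach a squamous epithelium that is not built to withstand them. The epithelium releases chemokines, leukocytes enter the wall, and the stroma beneath remodels its matrix. The upper epithelial layers normally form a barrier from cornified envelopes, tight junctions and desmosomes, and the rat oesophagus has an outer coat of striated muscle. Most genes described here belong to one of these compartments, and in whole tissue fewer cells of a type and less RNA per cell cannot be told apart.

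The dose labels carry a caution that touches every direction between the doses given here. The signals come from the scanner files under the titles they were deposited with. In the deposited value table all 8 STW5 columns instead hold, replicate by replicate, the scanner values titled with the opposite dose. The design text calls 0.5 ml/kg group 3 and 2 ml/kg group 4, and the titles have these numbers the other way round. Under the assignment of the value table every difference below between the doses has the opposite sign, with sizes and tests unchanged. A contrast of a dose with another group keeps its sign there and takes the name of the other dose. Differences without STW5 arrays stay as they are. A further limit is that the 2 ml/kg arrays lay on slide 3, with the omeprazole arrays, and the 0.5 ml/kg arrays on slide 2, with the untreated arrays, so that slide and dose cannot be told apart. Replicates 1 and 2 of 0.5 ml/kg were nearly identical, with a between-array spread 1.27 times the spread of repeated spots within an array, where the next closest pair of a group had 2.83. They were averaged and counted as 1 sample, which left 4 samples at 2 ml/kg and 3 at 0.5 ml/kg.

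Between 66.2% and 70.5% of features were well above background on the 2 ml/kg arrays, and between 61.5% and 64.3% on the 0.5 ml/kg arrays. The 75th percentile of the signal, to which each array was scaled, was 779 to 1078 units and 563 to 636 units in the same order of groups. Across genes, arrays correlated with r of 0.984 to 0.995 within 2 ml/kg, 0.964 to 0.995 within 0.5 ml/kg and 0.928 to 0.976 between the doses. Markers of the labelled tissue were bright on every array of both doses. Krt13, a keratin of oesophageal squamous cells, had log2 levels of 6.54 to 7.26 at 2 ml/kg and 7.63 to 8.52 at 0.5 ml/kg. Krt5, the keratin of basal cells, had 2.43 to 3.17 and 2.86 to 3.70, and Acta1, the actin of striated muscle, had 4.82 to 6.54 and 5.93 to 6.65, again 2 ml/kg before 0.5 ml/kg. A log2 level is the signal relative to the 75th percentile of the array, and a difference is 2 ml/kg minus 0.5 ml/kg.

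Of 13615 genes tested, 3261 (24.0%) differed between the doses at a Benjamini-Hochberg adjusted p under 0.05 in limma fitted over all 5 groups. Inflammatory, complement, endothelial and matrix genes were among the 1460 genes (10.7%) that were higher at 2 ml/kg, and squamous barrier genes were among the 1801 (13.2%) that were lower. The rises were larger than the falls. A difference above 2-fold was reached by 1135 of the higher and 651 of the lower genes, one above 4-fold by 322 and 27, and one above 8-fold by 56 and 0. The median difference was 1.45 among the higher genes, -0.85 among the lower genes and -0.15 over all genes. All 4 arrays of 2 ml/kg lay above all 4 arrays of 0.5 ml/kg for 2006 genes (14.7%) and below them for 2752 (20.2%), and 1367 and 1647 of these also passed the test. For 197 of the higher genes the 0.5 ml/kg signal, and for 27 of the lower genes the 2 ml/kg signal, was not well above background on any array, and their differences are given as lower bounds in fold. These bounds hold for the main processing only. Under the alternatives the log2 difference of Bbox1 lay between -2.64 and -0.37, with its call lost in 1 of 20, and that of Bdkrb1 between 0.61 and 2.50. Of the 130 named genes, 21 were well above background on 1 to 3 of the 4 arrays at 0.5 ml/kg, among them Spon1, Mrc1, Hpgds and Tie1 on 1 array and Txnip, Lbp, Rsad2 and Calcrl on 2, and their low-dose levels are less certain.

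These counts moved with the arrays and settings used. With all 20 arrays counted as samples, the near-identical pair as 2, 4734 genes passed, and adding the replicate number as a block to that fit gave 4994, 1994 higher and 3000 lower. The block was fitted only with 20 arrays, so that counts with it below also carry the change in samples. Fits with 20 arrays treat the near-identical pair as independent samples. Their counts and adjusted p below show the effect of that setting and are not further evidence. Leaving out both arrays of replicates 1 and 2 at 0.5 ml/kg left 927 genes, 532 higher and 395 lower. Without replicate 3 at 0.5 ml/kg 1409 passed, and without replicate 3 or 4 at 2 ml/kg 2171 and 2118 passed. Scaling by the median of the array in place of the 75th percentile shifted the median of all genes to -0.28 and gave 1245 higher and 2867 lower genes, so that 30.3% of the calls were higher in place of 44.8%. Of the 121 genes named here that passed the test, 57 did so whichever array was left out.

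**Figure D1:**
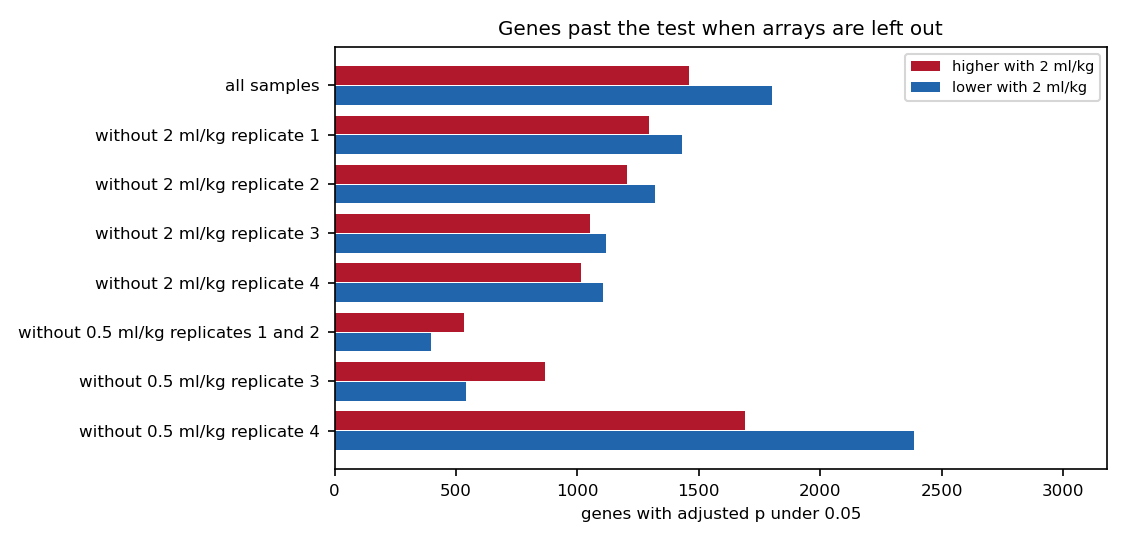
Number of genes with an adjusted p under 0.05 (horizontal axis) in the fit of all samples and in fits that leave out 1 sample, with genes higher at 2 ml/kg in red above genes lower at 2 ml/kg in blue. The counts were 1460 and 1801 with all samples, were 532 and 395 without replicates 1 and 2 of 0.5 ml/kg, and were 1689 and 2386 without replicate 4 of 0.5 ml/kg.

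The difference between omeprazole and untreated arrays also sets slide 3 against slide 2 and holds no STW5 array. In it 2124 genes (15.6%) were higher and 1657 (12.2%) lower. Of the 1460 genes higher at 2 ml/kg than at 0.5 ml/kg, 215 (14.7%) were higher with omeprazole than without a drug, which is 10.1% of the 2124, and 632 (43.3%) were lower there. Of the 1801 lower genes, 26 (1.44%) were lower there too, which is 1.57% of the 1657, and 617 (34.3%) were higher. Across the 13615 genes the differences of the 2 comparisons had a Pearson r of -0.48 and a Spearman rho of -0.43. The genes with the smallest p followed another pattern. Of the 50 genes with the smallest p between the doses, all 50 were higher at 2 ml/kg and 48 were also higher with omeprazole than without a drug. Txnip, which encodes a thioredoxin-binding protein, and RT1-T24-4, a class I gene of the multi-copy RT1 region whose probe may read related genes, were of this kind among the named genes. Txnip had log2 levels of -0.55, -1.04, -0.92 and -0.96 at 2 ml/kg, against -4.80, -5.17, -5.70 and -5.41 at 0.5 ml/kg, a difference of 4.50 ± 0.32 (SE, n = 4 and 3, limma adjusted p = 2.70e-07). Its mean level was -1.27 ± 0.35 on the omeprazole arrays and -5.09 ± 0.61 on the untreated arrays (SD, n = 4 each), a difference of 3.82 ± 0.30. RT1-T24-4 was at least 6.17-fold higher at 2 ml/kg (adjusted p = 3.03e-05) and differed by 2.41 ± 0.42 between omeprazole and untreated arrays. Slide and drug cannot be told apart in either difference.

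**Figure D2:**
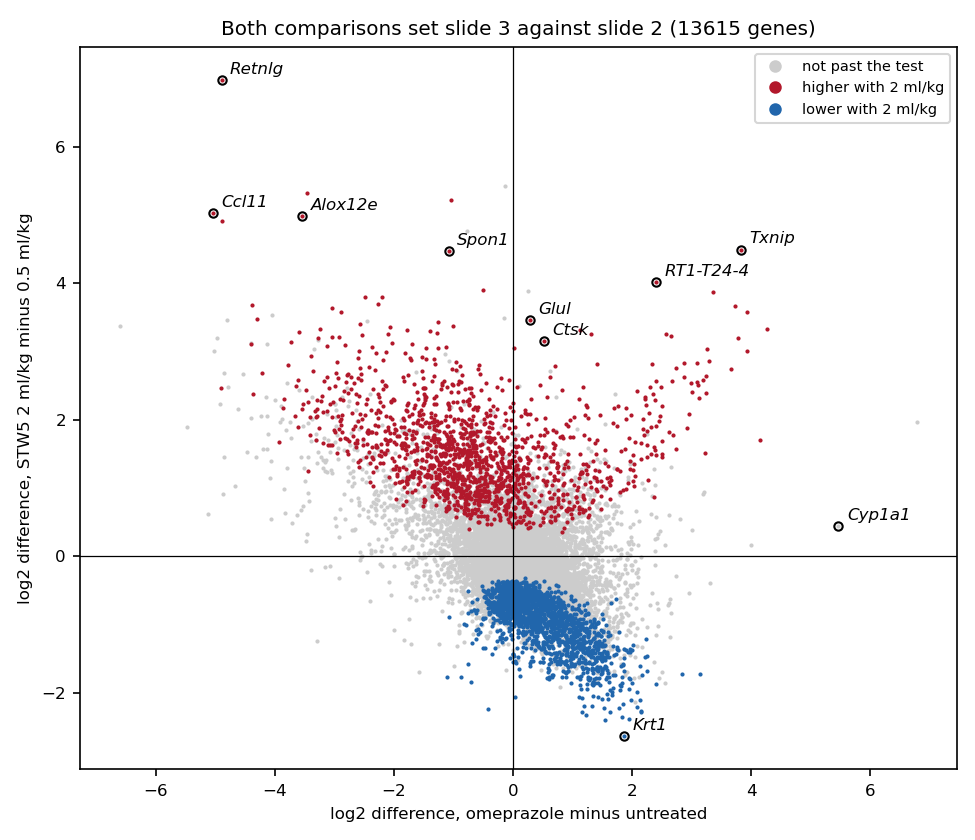
Each point is 1 of 13615 genes, with the log2 difference of omeprazole minus untreated arrays on the horizontal axis and of STW5 2 ml/kg minus 0.5 ml/kg on the vertical axis, as fitted, and genes past the test between the doses are red (higher) or blue (lower). Txnip and RT1-T24-4 lie at the upper right, whereas Retnlg, Ccl11 and Alox12e, at -4.89, -5.03 and -3.53 on the horizontal axis, lie in the upper left and Krt1 in the lower right.

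The largest difference was that of Retnlg, resistin-like gamma, a secreted protein of rodent neutrophils. The gene lies at chr11:65393907-65395639 of GRCr8, and its signal comes from the 60-base probe below, which the array file places at chr11:53175296-53175355 of rn4 on the minus strand. It is shown because this 1 probe carries the largest value of the comparison.
Retnlg probe: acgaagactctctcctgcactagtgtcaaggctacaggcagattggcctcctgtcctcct

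Retnlg had log2 levels of 4.41, 3.06, 3.42 and 3.85 at 2 ml/kg, against -4.43, -4.42, -4.13 and -1.35 at 0.5 ml/kg. The groups did not overlap, and replicate 4 of 0.5 ml/kg lay nearest to the 2 ml/kg arrays. The difference was 6.99 ± 1.10 (SE, adjusted p = 8.93e-04), between 6.42 and 7.96 when any 1 sample was left out. Ccl11, which encodes eotaxin, the chemokine that draws eosinophils, had 2.26, 2.21, 2.53 and 2.95 at 2 ml/kg, against -3.72, -3.63, -2.72 and -1.22 at 0.5 ml/kg, a difference of 5.03 ± 0.81 (adjusted p = 0.00103). Alox12e, a lipoxygenase of mouse epidermis, had -1.55, -2.46, -2.03 and -2.05 at 2 ml/kg and was not well above background on any 0.5 ml/kg array, so that it was at least 9.64-fold higher (adjusted p = 3.09e-05). All 3 genes kept an adjusted p under 0.05 whichever sample was left out.

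The other large rises encode proteases, matrix and plasma proteins and a secreted lipase. Mmp13, a collagenase, was at least 14.1-fold higher at 2 ml/kg (adjusted p = 0.0221) and Mmp10, a stromelysin, at least 3.42-fold higher (adjusted p = 0.00578), with every 0.5 ml/kg array at background in both. Spon1, which encodes the matrix protein F-spondin, differed by 4.47 ± 0.60 (adjusted p = 2.17e-04). Cfb, complement factor B, had 2.93, 3.39, 3.88 and 4.07 at 2 ml/kg, against -1.81, -1.71, 0.47 and 0.90 at 0.5 ml/kg, a difference of 3.70 ± 0.94 (adjusted p = 0.0123). In this gene the pair of near-identical 0.5 ml/kg arrays lay more than 2 log2 units below the other low-dose arrays. Lbp, the lipopolysaccharide-binding protein, differed by 3.80 ± 0.96 (adjusted p = 0.0117). Pla2g2a, a secreted phospholipase A2, had 2.25, 2.01, 2.65 and 2.54 at 2 ml/kg, against -3.51, -3.75, -2.79 and 1.80 at 0.5 ml/kg. Replicate 4 of 0.5 ml/kg was thus within 1 log2 unit of the 2 ml/kg arrays, and the difference of 3.90 ± 1.25 (adjusted p = 0.0326) lost its call without any 1 of the 2 ml/kg arrays, without replicates 1 and 2 or without replicate 3 of 0.5 ml/kg. Mmp13 lost it in 4 of these fits, and Lbp and Cfb without replicates 1 and 2 of 0.5 ml/kg.

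**Figure D3:**
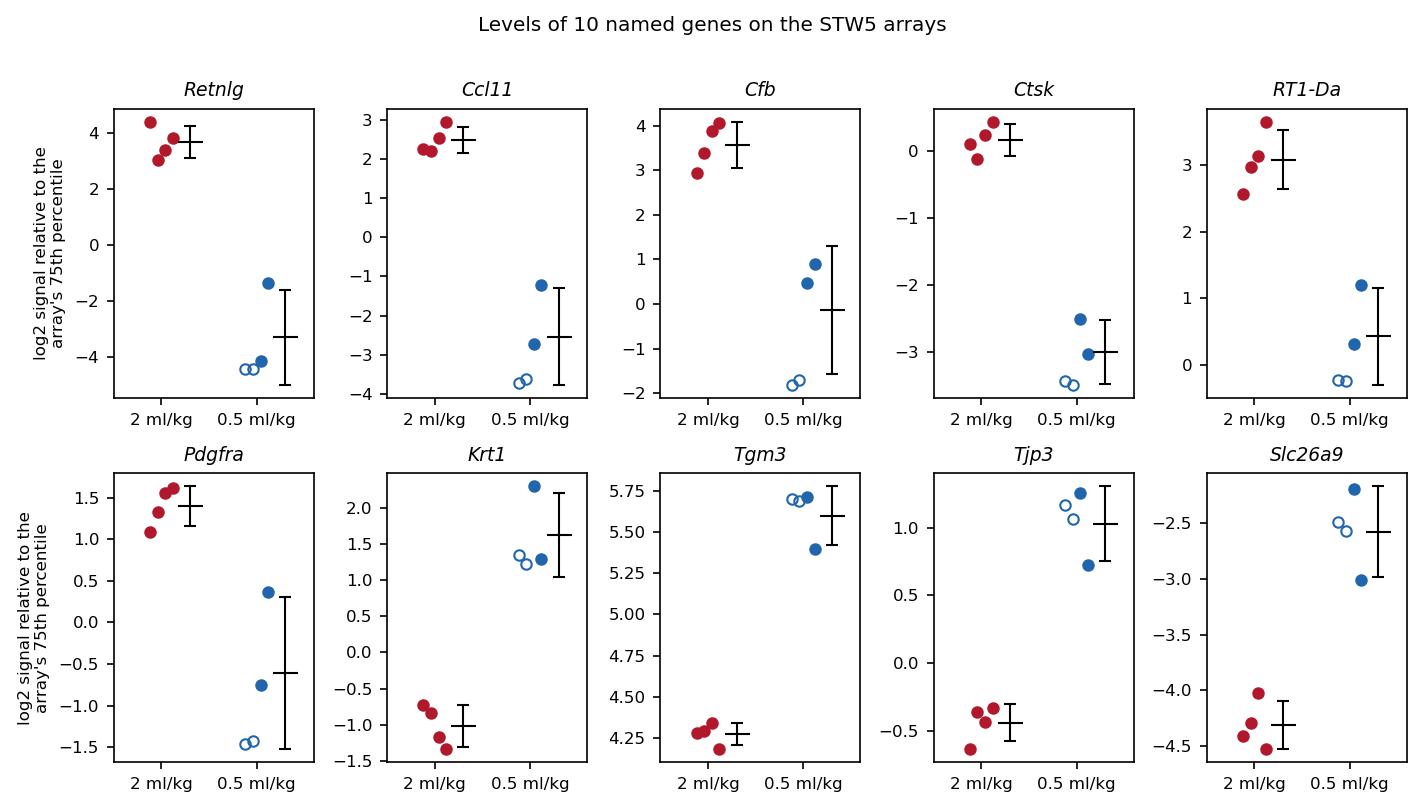
Log2 signal relative to the 75th percentile of the array (vertical axis) of 10 named genes, with 2 ml/kg arrays in red on the left and 0.5 ml/kg arrays in blue on the right, open circles for the near-identical replicates 1 and 2, and the mean and SD of 4 and 3 samples beside them. No 2 ml/kg array overlaps a 0.5 ml/kg array in these genes, Retnlg to Pdgfra being higher and Krt1 to Slc26a9 lower at 2 ml/kg.

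Among genes that recruit leukocytes, 10 chemokines and 6 of their receptors were higher at 2 ml/kg, while 17 chemokines and most cytokines did not pass the test. Of 27 chemokine genes measured 10 were higher and 0 lower, against 10.7% higher and 13.2% lower of all genes, and the median difference was 1.53. This list and those below were chosen with earlier results of these data known, so that their counts beside the shares of all genes are descriptive. Cxcl12, a stromal chemokine for leukocytes and progenitor cells, had 2.30, 1.84, 2.13 and 2.17 at 2 ml/kg, against -0.65, -0.81, 0.81 and 0.77 at 0.5 ml/kg, a difference of 1.82 ± 0.35 (adjusted p = 0.00306). The groups were apart by about 1 log2 unit. Ccl7, a monocyte chemokine, differed by 3.11 ± 0.85 (adjusted p = 0.0162), and Ccl21, which guides dendritic and T cells into lymph vessels, by 1.53 ± 0.42 (adjusted p = 0.0175). The neutrophil chemokines Cxcl1, Cxcl2 and Cxcl3 differed by 3.19, 3.37 and 3.46 with adjusted p above 0.05. Of 10 chemokine receptors 6 were higher and 0 lower, with a median of 1.42. Ccr3, the eotaxin receptor of eosinophils, was at least 2.89-fold higher (adjusted p = 7.70e-04). Ccr2, the monocyte receptor for Ccl7, and Cxcr4, the receptor for Cxcl12, differed by 1.86 ± 0.58 and 1.38 ± 0.39 (adjusted p = 0.0305 and 0.0185). Their calls were lost in 5 and 3 of 9 fits with a sample left out. Cxcr2 differed by -0.81 without passing. Without replicates 1 and 2 of 0.5 ml/kg 2 chemokines and 2 receptors were higher, and without replicate 3 these counts were 3 and 2.

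Of 23 cytokine genes 3 were higher and 2 lower, against 10.7% higher and 13.2% lower of all genes, with a median of 0.33. The counts were 4 and 2 when all 20 arrays were counted as samples and 6 and 2 when the replicate block was added. Il16, which encodes a chemoattractant for CD4+ cells, differed by 1.48 ± 0.22 (adjusted p = 4.82e-04) and Il18, a cytokine activated by caspase-1, by 1.33 ± 0.28 (adjusted p = 0.00506). The epithelial cytokine Il36b and Il36rn, the receptor antagonist of its family, were lower by contrast, by -1.78 ± 0.46 and -1.84 ± 0.52 (adjusted p = 0.0133 and 0.0191). Il1b, Il6 and Tnf differed by 3.53, 0.40 and 0.67 and did not pass. Il36b and Il36rn lost their calls without replicates 1 and 2 or without replicate 3 of 0.5 ml/kg, and Il36rn also without replicate 4 of 2 ml/kg. Of 18 cytokine receptors and feedback genes 3 were higher, 7 with all 20 arrays as samples, with or without the replicate block, and 0 without replicates 1 and 2 of 0.5 ml/kg. These were Tnfrsf1b, a receptor for tumour necrosis factor, at 2.44 ± 0.69 (adjusted p = 0.0193), Il6st, the shared signalling chain of the interleukin 6 family, at 1.00 ± 0.31 (adjusted p = 0.0282), and Il17ra, the interleukin 17 receptor, at 0.94 ± 0.32 (adjusted p = 0.0448). Their calls were lost in 3, 4 and 6 of 9 fits with a sample left out, in the same order.

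Of 20 macrophage and monocyte genes 17 were higher at 2 ml/kg and 0 lower, with a median of 1.90, and all measured members of the list had a positive difference. Mrc1, the mannose receptor, had -4.04, -3.21, -2.93 and -3.34 at 2 ml/kg, against -6.54, -6.85, -6.33 and -5.43 at 0.5 ml/kg, a difference of 2.77 ± 0.38 (adjusted p = 2.75e-04). The groups were more than 1 log2 unit apart. Csf1r, the receptor on which macrophages depend for survival, differed by 1.89 ± 0.41 (adjusted p = 0.00571). C1qb and C1qc, subunits of the complement component C1q that macrophages make, differed by 2.13 ± 0.47 and 2.29 ± 0.51 (adjusted p = 0.00658 and 0.00659). Without replicates 1 and 2 of 0.5 ml/kg 3 of the 20 passed. The score of the list, the mean over members of the log2 level minus its mean over 19 samples, was 0.13, 0.63, 0.89 and 0.98 at 2 ml/kg, against -2.35, -2.37, -1.08 and -0.55 at 0.5 ml/kg.

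Neutrophil genes were more uneven. Of 16 measured 3 were higher and 0 lower, against 10.7% and 13.2% of all genes, with a median of 1.91. The higher count was 7 with all 20 arrays as samples, with or without the replicate block, and 1 without replicates 1 and 2 of 0.5 ml/kg. Besides Retnlg the 3 higher genes were Fpr1, a receptor for bacterial formyl peptides, at least 1.79-fold higher (adjusted p = 0.0239), and Lcn2, an iron-sequestering protein of neutrophils and epithelium. Fpr1 lost its call without replicate 2 or 3 of 2 ml/kg and without replicates 1 and 2 of 0.5 ml/kg. Lcn2 had 0.63, 3.48, 4.10 and 4.52 at 2 ml/kg, against -4.62, -4.29, -1.99 and 1.23 at 0.5 ml/kg. Replicate 1 of 2 ml/kg lay below replicate 4 of 0.5 ml/kg, so that the groups overlapped, and the difference was 4.92 ± 1.20 (adjusted p = 0.0101). S100a8 and S100a9, the calprotectin subunits, differed by 2.20 and 3.04 without passing. Cxcr2, a chemokine receptor on this list, differed by -0.81 without passing.

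Mast cell and eosinophil genes were higher in 5 of 14, with a median of 1.75, and 10 were higher with all 20 arrays as samples and 11 with the replicate block added. They included Hpgds, a prostaglandin D2 synthase, at 2.24 ± 0.37 (adjusted p = 0.00122), Kit, the stem cell factor receptor, at least 1.50-fold higher (adjusted p = 0.00550), and the mast cell tryptase Tpsab1 at 2.45 ± 0.64 (adjusted p = 0.0140). Tpsab1 had -1.21, -0.87, -1.08 and -0.75 at 2 ml/kg, against -5.00, -5.10, -3.44 and -1.80 at 0.5 ml/kg. Its 2 ml/kg arrays lay close together, whereas the low-dose arrays spread widely below them. Of the 14 genes 3 passed without replicates 1 and 2 of 0.5 ml/kg, Tpsab1 not among them. Of 12 genes listed for T and NK cells 2 were higher, against 10.7% of all genes, and 0 were without replicates 1 and 2 of 0.5 ml/kg. Among the 2 was Cd4 at 1.72 ± 0.58 (adjusted p = 0.0416). Which cells carried its signal was not tested. Cd4 lost its call in 6 of 9 fits with a sample left out, including those without replicate 2 or 3 of 2 ml/kg and without replicate 2, 3 or 4 of 0.5 ml/kg. Of 2 B cell genes measured, the transcription factor Pax5 was lower by -0.45 ± 0.15 (adjusted p = 0.0440), a call lost in 7 of 9 fits with a sample left out.

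Complement and acute phase genes had the highest median of all lists, 2.57, and 16 of 19 were higher at 2 ml/kg with 0 lower. Serping1, the C1 inhibitor, had 5.14, 5.06, 5.36 and 5.49 at 2 ml/kg, against 1.22, 1.15, 2.93 and 3.43 at 0.5 ml/kg, a difference of 2.75 ± 0.48 (adjusted p = 0.00183). The 2 ml/kg arrays lay within 0.5 log2 units of each other and the low-dose arrays spread over more than 2. C1s, a protease of the classical pathway, had 1.37, 2.05, 2.55 and 1.47 at 2 ml/kg, against -2.73, -2.81, -0.84 and -0.93 at 0.5 ml/kg, a difference of 3.37 ± 0.60 (adjusted p = 0.00189). A2m, the protease inhibitor alpha-2-macroglobulin and a rat acute phase protein, differed by 3.33 ± 0.57 (adjusted p = 0.00158), and C3ar1, the receptor for the anaphylatoxin C3a, was at least 3.70-fold higher (adjusted p = 0.00189). These 4 genes kept their calls whichever sample was left out, and 7 of the 19 passed without replicates 1 and 2 of 0.5 ml/kg.

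Genes of antigen presentation were higher in 10 of 13 cases and lower in 0, with a median of 1.82. RT1-Da, a class II chain of the rat major histocompatibility complex, had 2.56, 2.98, 3.14 and 3.65 at 2 ml/kg, against -0.23, -0.24, 0.32 and 1.21 at 0.5 ml/kg, a difference of 2.65 ± 0.44 (adjusted p = 0.00115). Every 2 ml/kg array exceeded the highest 0.5 ml/kg array by more than 1 log2 unit. RT1-Bb and RT1-Db1, further class II chains, differed by 2.55 ± 0.43 and 1.93 ± 0.42 (adjusted p = 0.00128 and 0.00596), and Cd74, the invariant chain that escorts class II molecules, by 2.22 ± 0.46 (adjusted p = 0.00495). RT1 genes are similar to each other, so that a probe may read more than one of them. The count was 7 without replicates 1 and 2 of 0.5 ml/kg.

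Of 19 interferon response genes 9 were higher and 0 lower, with a median of 1.34, 13 with all 20 arrays as samples, with or without the replicate block, and 0 without replicates 1 and 2 of 0.5 ml/kg. Gbp2, a guanylate-binding protein induced by interferon gamma, had 0.61, 1.05, 1.23 and 1.87 at 2 ml/kg, against -2.16, -2.30, -0.50 and -0.17 at 0.5 ml/kg, a difference of 2.15 ± 0.52 (adjusted p = 0.00972). Its groups did not overlap. Rsad2, the antiviral protein viperin, differed by 2.83 ± 0.74 (adjusted p = 0.0141), Irf1, a transcription factor of the interferon response, by 1.34 ± 0.38 (adjusted p = 0.0193) and Ifi27 by 0.64 ± 0.18 (adjusted p = 0.0199). Gbp2 and Rsad2 lost their calls in 1, Irf1 in 2 and Ifi27 in 4 of 9 fits with a sample left out. Promoters of the members that moved together were searched for an interferon-stimulated response element, searched as GAAA, any 2 bases and GAAA again, on both strands, from 250 bases before to 50 after the start of the gene in the RefSeq table of GRCr8. Of the 9 higher members 6 had a promoter in the table and 4 of these held it (66.7%), against 3.77% of all 27457 promoters, 2.87% of those of genes tested, 5.01% of those of genes higher at 2 ml/kg and 3.07% of those of lower genes. The list was made of interferon targets, and its members that did not pass were not counted apart. The share of 66.7% therefore does not bear on the difference between the doses. A second motif, the NF-kB form GGG, any 2 bases and TTTCC, was in 1.51% of all promoters, 1.71% of those tested, 1.87% of those higher and 1.68% of those lower, and no promoter below holds it. The promoters of Gbp2 (chr2:234005477-234005776, plus strand), Rsad2 (chr6:48788071-48788370, minus strand) and Ifi27 (chr6:128355062-128355361, plus strand) are shown because each holds the motif, in capitals, which stands 31, 147 and, in Ifi27, 169 and 84 bases before the start. A match of letters is a description and not a measured site.
Gbp2: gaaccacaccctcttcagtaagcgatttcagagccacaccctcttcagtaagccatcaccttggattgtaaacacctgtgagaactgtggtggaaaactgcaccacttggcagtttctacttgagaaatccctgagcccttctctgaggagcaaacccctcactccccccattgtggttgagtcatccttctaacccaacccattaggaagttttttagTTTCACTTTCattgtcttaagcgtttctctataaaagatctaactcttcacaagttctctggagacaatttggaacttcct
Rsad2: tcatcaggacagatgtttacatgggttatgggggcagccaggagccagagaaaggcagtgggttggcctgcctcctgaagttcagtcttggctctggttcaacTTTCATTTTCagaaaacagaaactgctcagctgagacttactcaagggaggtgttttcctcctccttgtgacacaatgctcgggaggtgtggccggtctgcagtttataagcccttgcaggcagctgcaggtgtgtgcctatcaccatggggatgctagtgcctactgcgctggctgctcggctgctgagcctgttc
Ifi27: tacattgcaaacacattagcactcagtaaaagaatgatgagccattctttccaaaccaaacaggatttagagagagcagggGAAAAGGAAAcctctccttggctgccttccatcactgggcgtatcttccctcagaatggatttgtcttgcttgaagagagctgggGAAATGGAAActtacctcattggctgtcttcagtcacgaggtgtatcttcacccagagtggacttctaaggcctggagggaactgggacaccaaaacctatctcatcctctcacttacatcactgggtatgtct

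**Figure D4:**
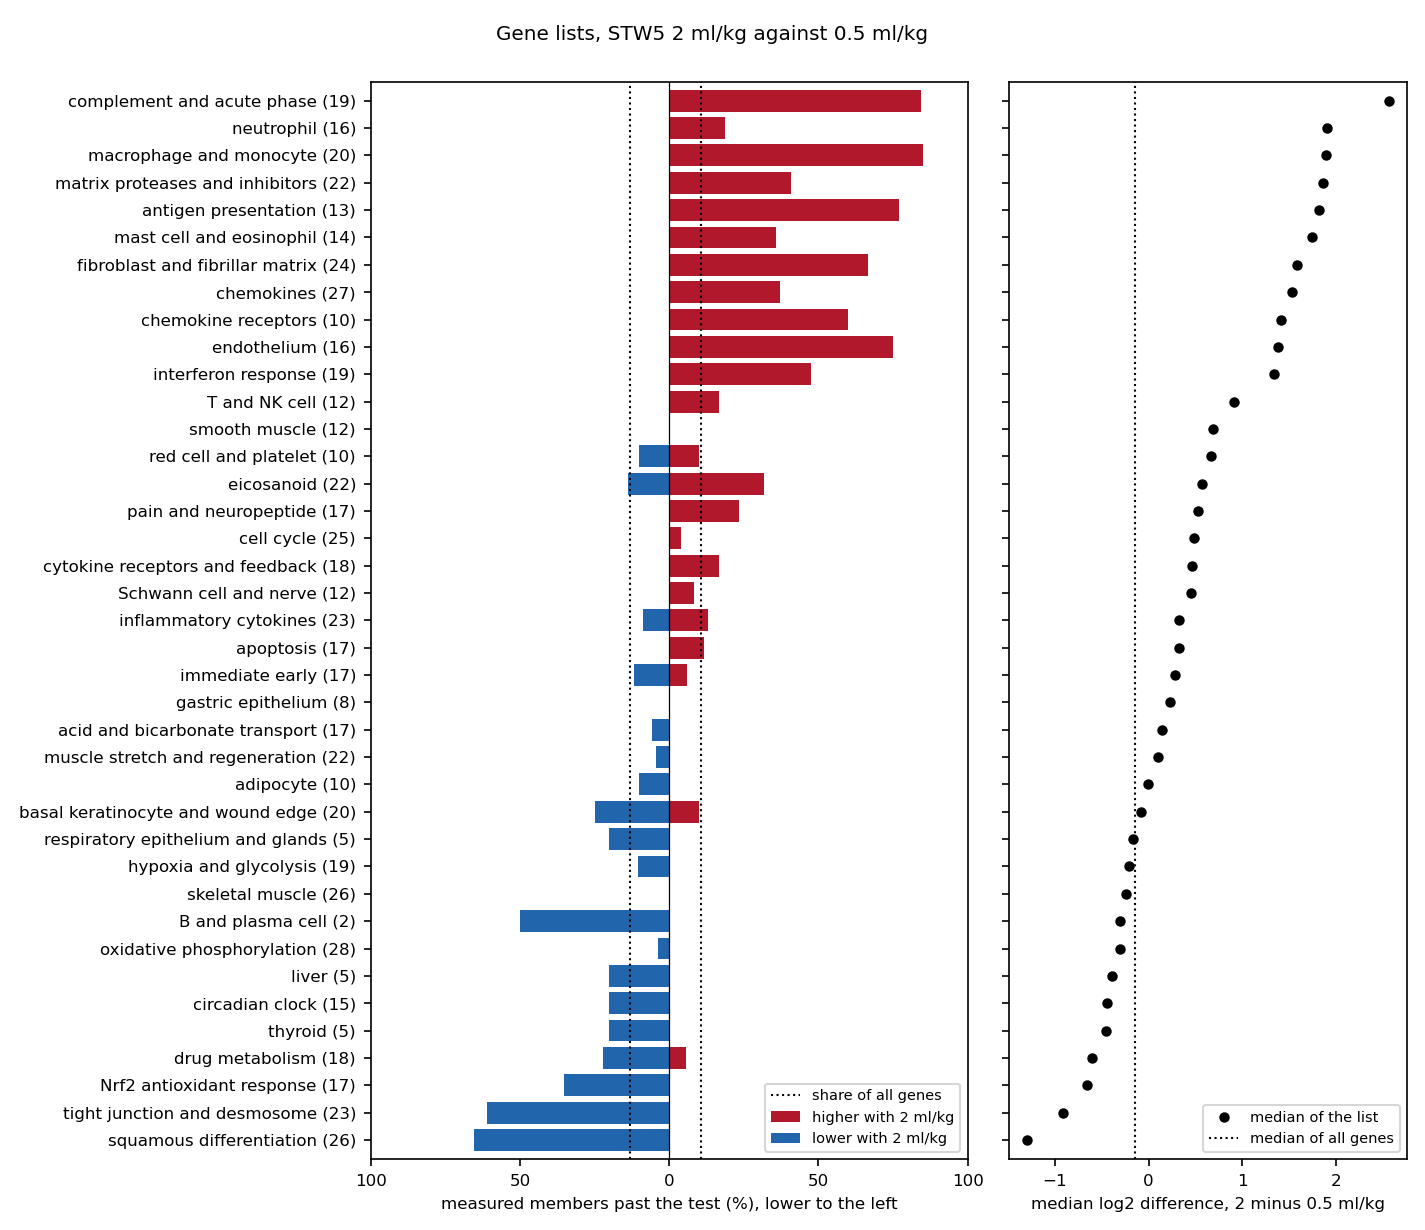
For each gene list (number of measured members in parentheses) the left panel gives the percentage of members that were higher (red, to the right) or lower (blue, to the left) at 2 ml/kg with an adjusted p under 0.05, with dotted lines at 10.7% and 13.2% of all genes, and the right panel gives the median log2 difference beside that of all genes, -0.15. Complement and acute phase genes stand at the top with a median of 2.57 and squamous differentiation genes at the bottom with -1.30.

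Vessel and stromal genes were higher as well. Of 16 endothelial genes 12 were higher and 0 lower, with a median of 1.38. Esam, an adhesion molecule of endothelial junctions, had -0.10, 0.22, 0.53 and 0.30 at 2 ml/kg, against -2.49, -2.46, -1.77 and -1.18 at 0.5 ml/kg, a difference of 2.05 ± 0.34 (adjusted p = 0.00109). The groups were about 1 log2 unit apart. Sele, E-selectin, which slows leukocytes on inflamed vessels, was at least 2.56-fold higher (adjusted p = 0.00202), Pecam1, a general endothelial marker, differed by 1.35 ± 0.28 (adjusted p = 0.00530) and Tie1, an endothelial receptor kinase, by 2.55 ± 0.56 (adjusted p = 0.00637). Of 24 genes of fibroblasts and fibrillar matrix 16 were higher and 0 lower, with a median of 1.59. Pdgfra, a growth factor receptor that marks fibroblasts, had 1.08, 1.33, 1.56 and 1.61 at 2 ml/kg, against -1.46, -1.43, -0.75 and 0.37 at 0.5 ml/kg, a difference of 2.00 ± 0.36 (adjusted p = 0.00193). Replicate 4 of 0.5 ml/kg was the highest of its group in this gene too. Col5a2, a fibrillar collagen, Fn1, fibronectin, and Sparc, a collagen-binding protein, differed by 1.98 ± 0.39, 1.43 ± 0.32 and 1.66 ± 0.37 (adjusted p = 0.00367, 0.00653 and 0.00655). Without replicates 1 and 2 of 0.5 ml/kg 3 endothelial and 2 matrix genes passed, whereas the medians of these lists stayed between 1.05 and 1.77 and between 1.39 and 1.74 when any 1 sample was left out.

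Of 22 matrix proteases and inhibitors 9 were higher and 0 lower, with a median of 1.86, and 6 passed without replicates 1 and 2 of 0.5 ml/kg. Mmp2, a gelatinase of fibroblasts, had 4.83, 4.85, 5.27 and 5.16 at 2 ml/kg, against 2.29, 2.26, 2.96 and 3.14 at 0.5 ml/kg, a difference of 2.23 ± 0.38 (adjusted p = 0.00140). Mmp14, the membrane protease that activates it, had 3.54, 3.49, 3.94 and 4.12 at 2 ml/kg, against 1.03, 1.03, 1.42 and 1.46 at 0.5 ml/kg, a difference of 2.47 ± 0.46 (adjusted p = 0.00246). In both genes the doses were well apart, with little spread within either. Ctsk, the collagen-degrading cathepsin K, differed by 3.15 ± 0.62 (adjusted p = 0.00348), and omeprazole and untreated arrays differed by 0.52 ± 0.57 in this gene.

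Receptors for pain mediators and neuropeptides were higher in 4 of 17 cases and lower in 0, against 10.7% and 13.2% of all genes, with a median of 0.52. Bdkrb1, the inducible bradykinin receptor, had -4.50, -4.17, -3.42 and -3.77 at 2 ml/kg and was at background on every 0.5 ml/kg array, so that it was at least 2.51-fold higher (adjusted p = 1.23e-04). Calcrl, a receptor component for calcitonin gene-related peptide and adrenomedullin, differed by 2.14 ± 0.36 (adjusted p = 0.00128), Npy1r, a neuropeptide Y receptor, by 2.47 ± 0.57 (adjusted p = 0.00825) and Tacr1, the substance P receptor, by 2.05 ± 0.50 (adjusted p = 0.0101). The acid-gated channel gene Trpv1 differed by -0.85 without passing. Without replicates 1 and 2 of 0.5 ml/kg 2 of the 17 passed.

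Eicosanoid genes gave calls in both directions. Of 22 measured 7 were higher and 3 lower, against 10.7% higher and 13.2% lower of all genes, with a median of 0.57. Besides Pla2g2a and Hpgds the higher ones included Tbxas1, thromboxane synthase, at 1.56 ± 0.37 (adjusted p = 0.00940) and Ptgs1, the constitutive cyclooxygenase, at 1.12 ± 0.31 (adjusted p = 0.0188). The lower ones were the epidermal lipoxygenases Alox12b and Aloxe3, which act in turn to build the lipid barrier, and Alox12. Aloxe3 had -0.07, 0.05, 0.05 and -0.77 at 2 ml/kg, against 1.95, 2.00, 2.21 and 0.87 at 0.5 ml/kg, a difference of -1.87 ± 0.42 (adjusted p = 0.00724). Replicate 4 was the lowest array in both groups. Alox12b differed by -2.17 ± 0.63 (adjusted p = 0.0212), a call lost without replicate 4 of 2 ml/kg and without replicates 1 and 2 or replicate 3 of 0.5 ml/kg. With all 20 arrays as samples 4 were lower, 5 with the replicate block added, and 1 was higher without replicates 1 and 2 of 0.5 ml/kg.

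**Figure D5:**
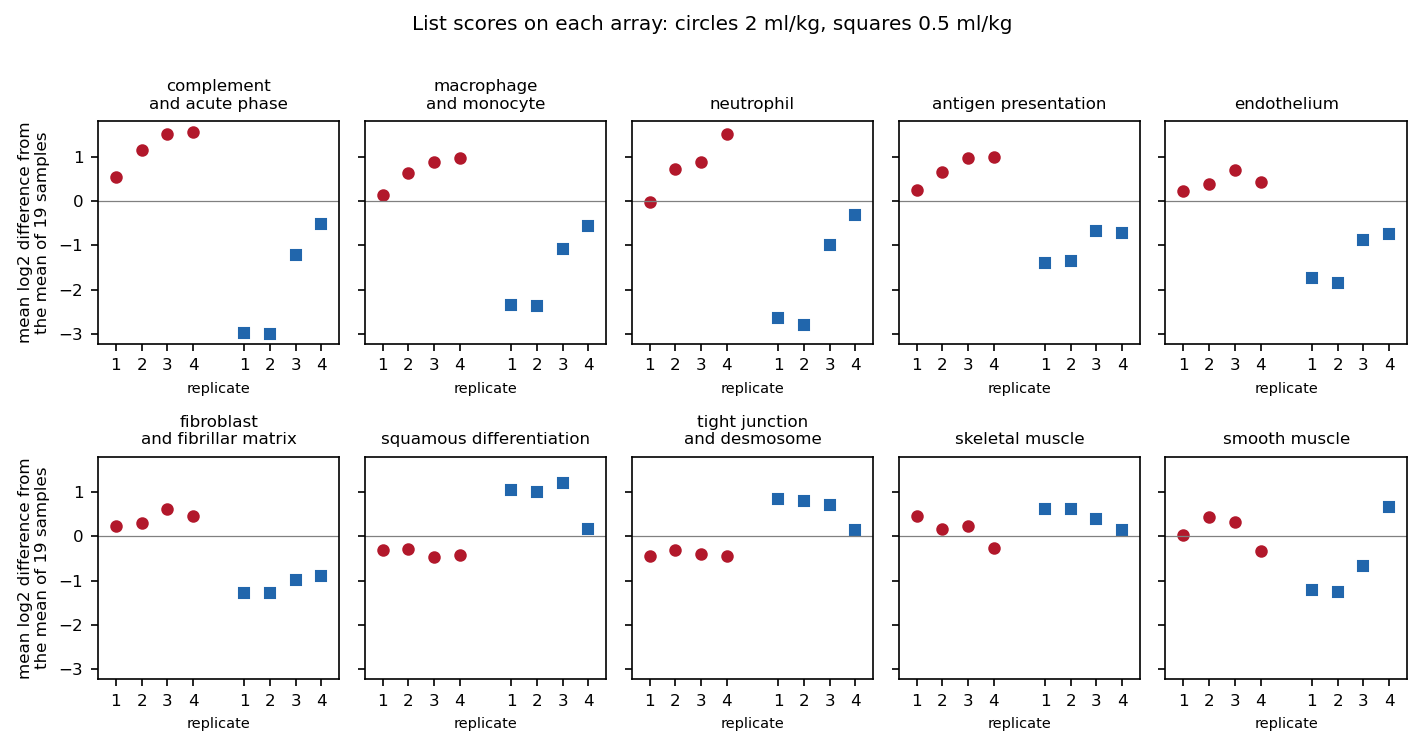
Score of 10 gene lists (vertical axis, mean over members of the log2 level minus its mean over 19 samples) on each array, with 2 ml/kg arrays as red circles on the left and 0.5 ml/kg arrays as blue squares on the right of each panel, numbered by replicate. Complement, macrophage, neutrophil, antigen presentation, endothelial and matrix scores do not overlap between the doses, nor do squamous and junction scores, whereas skeletal and smooth muscle scores do.

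The largest falls at 2 ml/kg included genes of squamous barriers and genes of other functions. Krt1, a keratin of differentiating squamous cells, had -0.73, -0.83, -1.17 and -1.34 at 2 ml/kg, against 1.34, 1.22, 2.30 and 1.30 at 0.5 ml/kg, a difference of -2.64 ± 0.62 (adjusted p = 0.00836). The groups were apart by about 2 log2 units. Pnpla1, which makes the acylceramides of the skin barrier, differed by -2.19 ± 0.66 (adjusted p = 0.0249). Serpina9, a protease inhibitor gene, had -0.85, -0.95, -0.95 and -1.85 at 2 ml/kg, against 1.21, 1.30, 1.51 and 0.41 at 0.5 ml/kg, a difference of -2.21 ± 0.47 (adjusted p = 0.00552). Replicate 4 again was the lowest array at either dose. Bbox1, an enzyme of carnitine synthesis, Dcst1, Angptl6, an angiopoietin-like secreted protein, and Fcho1, an endocytic adaptor, were not well above background on any 2 ml/kg array and were at least 2.22-fold, 2.26-fold, 1.74-fold and 1.79-fold lower (adjusted p = 0.00424, 0.00296, 0.00104 and 0.00569). Plcxd2 and Ctxn3 differed by -2.23 ± 0.49 and -2.28 ± 0.77 (adjusted p = 0.00653 and 0.0416). Ctxn3 lost its call without any 1 of the 2 ml/kg arrays and without replicates 1 and 2 or replicate 3 of 0.5 ml/kg.

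Of 26 genes of squamous differentiation 17 were lower at 2 ml/kg and 0 higher, with a median of -1.30. Klk8, a protease of the shedding cell layers, had 4.58, 4.60, 4.22 and 4.39 at 2 ml/kg, against 6.04, 6.08, 6.49 and 5.74 at 0.5 ml/kg, a difference of -1.65 ± 0.36 (adjusted p = 0.00604). Tgm3, a transglutaminase that cross-links the cornified envelope, had 4.28, 4.29, 4.34 and 4.18 at 2 ml/kg, against 5.70, 5.69, 5.71 and 5.39 at 0.5 ml/kg, a difference of -1.33 ± 0.32 (adjusted p = 0.00978). The arrays of each dose lay within 0.5 log2 units in Tgm3. Elovl4, which makes very long fatty acids for barrier lipids, differed by -1.61 ± 0.37 (adjusted p = 0.00755) and Krt13 by -1.23 ± 0.34 (adjusted p = 0.0173). The cornified envelope precursors Ivl and Lor were lower by -1.85 and -1.55, while Flg and Sprr1b, at 0.26 and 0.16, did not pass. The count of lower genes was 3 without replicates 1 and 2 of 0.5 ml/kg and 5 without replicate 3, with a median between -1.60 and -1.12 when any 1 sample was left out.

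Genes of cell contacts were lower in part. Of 23 genes of tight junctions and desmosomes 14 were lower and 0 higher, with a median of -0.92. Tjp3, a scaffold protein of tight junctions, differed by -1.47 ± 0.28 (adjusted p = 0.00277). Tjp3 had -0.63, -0.36, -0.43 and -0.33 at 2 ml/kg, against 1.17, 1.06, 1.25 and 0.72 at 0.5 ml/kg, with about 1 log2 unit between the groups. Marveld2, tricellulin, which seals the points where 3 cells meet, differed by -1.24 ± 0.26 (adjusted p = 0.00454), Cldn23, a claudin, by -1.40 ± 0.34 (adjusted p = 0.00978) and Cgn, cingulin, which links tight junctions to the cytoskeleton, by -2.11 ± 0.57 (adjusted p = 0.0152). The main epithelial claudins Cldn1 and Cldn7, at -0.58 and -0.28, did not pass. Without replicates 1 and 2 of 0.5 ml/kg 3 genes passed, and without replicate 3 4 did.

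Basal cell and wound edge genes gave calls in both directions. Of 20 measured 2 were higher and 5 lower, against 10.7% higher and 13.2% lower of all genes, with a median of -0.08. In either direction 0 passed without replicates 1 and 2 of 0.5 ml/kg. Ereg, the growth factor epiregulin, Trim29 and Sox2, a transcription factor of the oesophageal epithelium, were lower by -1.48 ± 0.35, -1.09 ± 0.29 and -1.15 ± 0.33 (adjusted p = 0.00890, 0.0147 and 0.0204). Cav1, caveolin-1, which endothelium and fibroblasts also make, was higher by 1.24 ± 0.31 (adjusted p = 0.0117). Krt5 differed by -0.26 ± 0.44 (adjusted p = 0.691). The skin stress keratin Krt16 differed by 3.88 without passing.

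Detoxifying and antioxidant genes were lower at 2 ml/kg in part. Of 18 drug metabolism genes 4 were lower and 1 higher, against 13.2% lower and 10.7% higher of all genes, with a median of -0.60. With all 20 arrays as samples 7 were lower, with or without the replicate block. The 4 lower genes were Por, the electron donor of cytochromes P450, at -1.32 ± 0.38, Nqo1, a quinone reductase, at -0.999 ± 0.297, the alcohol dehydrogenase Adh6a at -1.78 ± 0.53 and the cytochrome P450 Cyp3a9 at -1.11 ± 0.33 (adjusted p = 0.0207, 0.0240, 0.0242 and 0.0250), and 0 of them passed without replicates 1 and 2 or replicate 3 of 0.5 ml/kg or without replicate 4 of 2 ml/kg. Nqo1, Adh6a and Cyp3a9 also lost their calls without replicate 3 and Por without replicate 1 of 2 ml/kg. Cyp1a1, the cytochrome P450 most strongly induced by the aryl hydrocarbon receptor, had -3.61, -4.62, -4.37 and -4.09 at 2 ml/kg, against -2.60, -2.89, -4.43 and -6.65 at 0.5 ml/kg. The low-dose arrays lay on both sides of the 2 ml/kg arrays, and the difference of 0.44 ± 0.90 (adjusted p = 0.750) turned negative in 5 alternative fits. Of 17 genes of the Nrf2 antioxidant response 6 were lower and 0 higher, with a median of -0.65. Me1, the malic enzyme, Srxn1, sulfiredoxin, and Cat, catalase, differed by -0.96 ± 0.22, -0.88 ± 0.21 and -0.84 ± 0.23 (adjusted p = 0.00783, 0.00856 and 0.0156). Of these 17 genes 2 passed without replicates 1 and 2 of 0.5 ml/kg.

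Of 17 acid and bicarbonate transport genes 1 passed, against 24.0% of all genes. Slc26a9, an epithelial chloride transporter, had -4.41, -4.29, -4.03 and -4.53 at 2 ml/kg, against -2.49, -2.57, -2.19 and -3.01 at 0.5 ml/kg. It was lower by -1.74 ± 0.24 (adjusted p = 2.38e-04), with more than 1 log2 unit between the groups, and kept its call whichever sample was left out. Of 19 hypoxia and glycolysis genes 2 were lower, against 13.2% of all genes. These were Egln3, an oxygen-sensing prolyl hydroxylase, at -1.77 ± 0.42 and Pfkfb3, a regulator of glycolysis, at -0.79 ± 0.22 (adjusted p = 0.00887 and 0.0168). Pfkfb3 was also lower with omeprazole than without a drug, by -0.60 ± 0.20, and lost its call between the doses without replicates 1 and 2 or without replicate 3 of 0.5 ml/kg. Of 15 circadian clock genes 3 were lower, against 13.2% of all genes. These were Clock at -0.96 ± 0.21, Bhlhe40 at -0.86 ± 0.25 and Nr1d1 at -1.55 ± 0.46 (adjusted p = 0.00644, 0.0228 and 0.0248), and 1 was lower without replicates 1 and 2 or without replicate 3 of 0.5 ml/kg. Nr1d1 lost its call without replicate 2 or 4 of 2 ml/kg and without replicate 3 or 4 of 0.5 ml/kg. Bhlhe40 also lost its call without replicate 3 of 2 ml/kg. The labels give no time of day for tissue removal.

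Muscle and energy genes gave few calls, against 10.7% higher and 13.2% lower of all genes. Of 26 skeletal muscle genes 0 passed in limma, with a median of -0.24 and 2 lower with all 20 arrays as samples, with or without the replicate block. The smallest p were those of Actn3, a fast-fibre actinin, at -1.04 ± 0.40 (adjusted p = 0.0641) and the fast myosin Myh1 at -1.20 ± 0.53 (adjusted p = 0.104). With all 20 arrays as samples these genes reached -1.25 and -1.59, with adjusted p of 0.0171 and 0.0271, or 0.0267 and 0.0258 with the replicate block added. Here and below, fits with 20 arrays count the near-identical pair of 0.5 ml/kg as 2 independent samples. Counted by unadjusted p under 0.05, 0 skeletal muscle genes rose and 3 fell. Of 22 genes of muscle stretch and regeneration 1 was lower, Mss51, at -1.73 ± 0.47 (adjusted p = 0.0164). Of 12 smooth muscle genes 0 passed, with a median of 0.69, with 3 up and 0 down by unadjusted p under 0.05, and 4 higher with all 20 arrays as samples or 3 with the replicate block added. Mylk, a kinase of smooth muscle contraction, had 2.73, 2.96, 2.71 and 2.64 at 2 ml/kg, against 0.55, 0.43, 1.09 and 3.25 at 0.5 ml/kg. Replicate 4 of 0.5 ml/kg exceeded all 2 ml/kg arrays, and the difference of 1.15 ± 0.48 (adjusted p = 0.0888) became 1.43 with all 20 arrays as samples (adjusted p = 0.0243, or 0.0206 with the replicate block added). Tagln, a smooth muscle cytoskeletal protein, differed by 0.86 ± 0.38 (adjusted p = 0.104), and by 1.10 with all 20 arrays as samples (adjusted p = 0.0279, or 0.0420 with the block added). Of 28 genes of oxidative phosphorylation 1 was lower, Uqcrh, a subunit of respiratory complex III, at -0.70 ± 0.20 (adjusted p = 0.0185), and 4 were with all 20 arrays as samples, with or without the block. Mss51 and Uqcrh lost their calls without replicate 4 of 2 ml/kg and without replicates 1 and 2 of 0.5 ml/kg, and Uqcrh also without replicate 3.

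Growth and stress genes also gave few calls, against 10.7% higher and 13.2% lower of all genes. Of 25 cell cycle genes 1 was higher, Tyms, thymidylate synthase, at 1.04 ± 0.26 (adjusted p = 0.0109). Of 17 apoptosis genes 2 were higher. Among them Casp1, which activates interleukins 1 beta and 18, differed by 1.33 ± 0.37 (adjusted p = 0.0176). Of 17 immediate early genes 1 was higher and 2 lower, with Nr4a3, an orphan nuclear receptor, at 1.90 ± 0.38, Klf4, a transcription factor of squamous differentiation, at -0.81 ± 0.24 and Egr3 at -0.66 ± 0.23 (adjusted p = 0.00385, 0.0249 and 0.0461). With all 20 arrays as samples, with or without the replicate block, 4 apoptosis genes were higher and 2 lower, and 3 immediate early genes higher and 4 lower. Casp1 lost its call without replicate 4 of 2 ml/kg and without replicates 1 and 2 of 0.5 ml/kg, Klf4 in 4 and Egr3 in 8 of 9 fits with a sample left out.

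Markers of tissues that a dissection could carry along gave single calls, where 10.7% of all genes were higher and 13.2% lower. Pmp22, a myelin protein also made by fibroblasts, was the 1 of 12 Schwann cell and nerve genes that passed, at 1.87 ± 0.42 (adjusted p = 0.00712). Cidea was the 1 of 10 adipocyte genes, at -1.03 ± 0.28 (adjusted p = 0.0169), Scgb1a1 the 1 of 5 airway genes, at -1.09 ± 0.27 (adjusted p = 0.0119), Serpina1 the 1 of 5 liver genes, at -1.50 ± 0.35 (adjusted p = 0.00876), and Dio1 the 1 of 5 thyroid genes, at -1.43 ± 0.38 (adjusted p = 0.0153). Of 8 gastric genes 0 passed in limma, with 0 in either direction by unadjusted p under 0.05, and the smallest p were those of the proton pump gene Atp4a at -0.47 ± 0.36 and of Gast, gastrin, at 0.23 ± 0.19 (adjusted p = 0.349 and 0.395). Of 10 red cell and platelet genes Pf4, platelet factor 4, was higher by 2.02 ± 0.58 and Gp1bb lower by -1.37 ± 0.23 (adjusted p = 0.0212 and 0.00135). The calls of Pmp22, Cidea, Dio1 and Pf4 were lost without replicates 1 and 2 of 0.5 ml/kg, and those of Cidea, Scgb1a1, Serpina1, Dio1 and Pf4 without replicate 3. On the 2 ml/kg arrays the adipocyte score lay between -0.53 and -0.03, the Schwann cell score between -0.07 and 0.38 and the smooth muscle score between -0.32 and 0.44. On the 0.5 ml/kg arrays the adipocyte score was -2.27, -2.28, -0.22 and 0.28, the Schwann cell score -1.31, -1.29, -0.32 and 0.84 and the smooth muscle score -1.22, -1.27, -0.66 and 0.66. The near-identical pair was thus low in these 3 scores, beside its low scores in most leukocyte lists and in the endothelial and matrix lists. It was not low in the skeletal muscle score, which was 0.61 on both arrays, against 0.38 and 0.16 on replicates 3 and 4 of 0.5 ml/kg. The part of tissue make-up in the differences was not tested.

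Within a slide the doses were set against the other group there, in contrasts that share their STW5 arrays with the comparison of doses and are given as fitted. Retnlg was higher at 2 ml/kg than with omeprazole on slide 3, by 6.10 ± 1.02 (adjusted p = 0.0192), and lower at 0.5 ml/kg than without a drug on slide 2, by -5.78 ± 1.10 (adjusted p = 8.90e-04). Ccl11 gave 4.79 ± 0.75 and -5.26 ± 0.81 (adjusted p = 0.0145 and 3.13e-04) in the same order, and Alox12e 5.66 ± 0.52 and -2.86 ± 0.57 (adjusted p = 7.79e-05 and 0.00115). Of the 121 named genes called between the doses, 5 passed on both slides, 106 only at 0.5 ml/kg against no drug, 0 only at 2 ml/kg against omeprazole and 10 on neither, and whether the slides differed in this was not tested. The 121 genes were called with the same STW5 arrays, and the share of all genes passing these contrasts is not given here. The counts therefore describe the named genes only. Krt1 was among the 106, with -0.76 ± 0.57 at 2 ml/kg against omeprazole (adjusted p = 0.490) and 3.75 ± 0.62 at 0.5 ml/kg against no drug (adjusted p = 4.10e-04). Txnip passed on neither slide, with 0.40 ± 0.30 and -0.28 ± 0.32 (adjusted p = 0.481 and 0.516), although its doses differed by 4.50.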

How the data were processed

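Single-channel Cy3 arrays of rat oesophagus were used, 20 in 5 groups of 4. The intensity values are the processed signals that the authors deposited, background-subtracted and detrended by Agilent Feature Extraction 10.7.3.1, per the file headers, with probe positions on rn4. The value table holds ratios of each signal to the median of its array, as the deposited values show, and the step that made it is not given in the sources used here.

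Control spots and outlier spots were removed, spots of a probe averaged, and log2 signals scaled to the 75th percentile of each array. A probe was kept if well above background on all 4 arrays of some group, on at least 50% of its spots per array. The brightest kept probe stood for a gene, giving 13615 genes, 11145 of them named through an accession, 1360 by symbol, 283 by synonym and 827 from the array file alone, against RefSeq GRCr8. Group means of all 5 groups were fitted with limma 3.58.1 in R 4.3.3 over 19 samples, with Benjamini-Hochberg adjustment over all genes, and the procedure was tested on simulated data. Array number limits the precision. The labels do not tie arrays to single animals, so p-values measure the spread between these samples.

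Named genes were the 12 largest rises and falls among called genes without overlap of arrays and with an established symbol, up to 4 called members of each list by smallest p (2 by smallest p where none was called), and Cyp1a1, Krt5, Krt13 and Acta1. Members and lists were chosen with earlier results of these data known. Other genes of the lists are given to fill out a group. A few of the genes chosen this way are not reported here. Same-numbered arrays of the doses deviated together (r = 0.115, 0.163, 0.238 and 0.139), and the number is also the array's position on the slide. The pairing comes from this check and the titles, not from a stated litter or day. Alternatives changed scaling, background correction, filter, probe choice, weights, samples fitted and the replicate block, or left out 1 sample.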

Additional observations from a re-analysis of the deposited data

Results flagged for a closer look

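In 6 of 169 sets of the 4 arrays at 2 ml/kg (130 named genes and 39 list scores), 1 array stood apart, with a gap to its nearest neighbour above the critical share of the whole range in Dixon's test at 95%, and chance gives about 1 in 20. The share was 0.973 in Bbox1, where replicate 3 was low at a log2 level of -7.92, below background like the rest of its group. It was 0.861 in Plcxd2, where replicate 2 was high at -3.41. Replicate 4 was low in 3 genes, with a share of 0.903 in Serpina9, 0.850 in Aloxe3 and 0.897 in Uqcrh. The score of the list of muscle stretch and regeneration had a share of 0.878, with replicate 3 high at 0.48. The low-dose group, with 3 samples, was too small for this check.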

How the results depend on the processing

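The 3261 calls (1460 higher, 1801 lower) depended most on the samples. Leaving out 1 sample gave 927 to 4075 calls, 532 to 1689 higher and 395 to 2386 lower, least without replicates 1 and 2 of 0.5 ml/kg and most without replicate 4. With all 20 arrays as samples 4734 passed and 2766 were lower, and with the replicate block added, which follows the pairing of numbers, 4994 passed and 3000 were lower. Array weights gave 6345 calls, 2517 higher and 3828 lower, and no filter on dim probes 5759, 4207 of them lower. Median scaling gave 2867 lower genes, as did the value table with columns assigned by scanner file, and with its own column labels 2868 were higher and 1244 lower. Fitting only both doses, quantile normalization, normexp, raised dim signals, the stricter filter and mean probes kept all counts within 1.5 times. Of 2724 values of the 130 named genes under alternatives, 2499 kept direction and side of the threshold, 202 lost a call, 18 gained one and 5 turned sign, all of Cyp1a1, which was never called. Cyp1a1 was -0.0297 with 20 arrays and with the replicate block, -0.0334 with normexp, -0.70 with array weights and -0.58 without replicate 4 of 0.5 ml/kg, and leaving out a sample moved it between -0.58 and 1.37. Counting all 20 arrays as samples, the near-identical pair as 2, gave calls to Actn3, Myh1, Mylk and Tagln, and adding the replicate block to that fit changed the call of no named gene. The causes were not tested. Signals near background limit the low-dose level of 197 higher genes.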

Other observations

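Genes outside the naming rule, chosen after their values were seen, extend the groups above. Further myeloid surface genes were higher at 2 ml/kg, the lectins Clec10a by 3.44 ± 0.56 and Clec4a2 by 3.14 ± 0.81 and the membrane-spanning Ms4a4a, Ms4a6b and Ms4a7 by 3.41 ± 0.63, 3.07 ± 0.49 and 2.91 ± 0.96 (SE, n = 4 and 3, limma adjusted p between 0.00100 and 0.0370). At 0.5 ml/kg Clec4a2 was well above background on 3 of the 4 arrays, Ms4a4a and Ms4a7 on 2 and Ms4a6b on 1, so that their low-dose levels are less certain. Stromal genes were Grem1, an inhibitor of bone morphogenetic proteins, at 3.05 ± 0.49, Sulf1, which trims heparan sulfate, at 2.98 ± 0.59, and Ednrb, an endothelin receptor, at 3.12 ± 0.52. Sulf1 and Ednrb were well above background on 2 of the 4 arrays at 0.5 ml/kg, which makes their low-dose levels less certain too. Glul, glutamine synthetase, was higher by 3.46 ± 0.37 (adjusted p = 1.86e-05), while omeprazole and untreated arrays differed in it by 0.28 (adjusted p = 0.565).

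Lower at 2 ml/kg were further epidermal genes. Prdm1, a transcription factor of terminal differentiation, differed by -1.81 ± 0.26 (adjusted p = 3.85e-04), Pla2g2f and Pla2g4d, phospholipases, by -2.10 ± 0.46 and -1.89 ± 0.51, Padi1, which citrullinates keratins, by -1.94 ± 0.43, Tgm5, a transglutaminase, by -1.88 ± 0.57, and Gsdma, a gasdermin, by -1.96 ± 0.53. Among the 50 genes with the smallest p, Nudt9, Eif3h and Rpap3 were higher by 2.83, 1.89 and 1.90, and by 3.09, 2.31 and 1.74 with omeprazole against no drug.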
